A study of Drosophila melanogaster with 2 samples.

Results

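The GATA factor genes of the fly, with the cofactor gene ush and the forkhead gene fkh, were examined for peaks of the zinc finger protein Ham. The 7 genes are srp, GATAe, pnr, grn, GATAd, ush and fkh, taken by symbol from 13968 protein-coding genes. A peak was counted for a gene when the start site nearest to the summit of the peak, among protein-coding genes, was that of the gene. Of 150585 candidate regions in the pooled list, 253 belonged to these genes, and 5 of the 1495 pooled thresholded peaks did.

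The study measured where Ham, made as a fusion with eGFP in a transgenic *Drosophila melanogaster* strain (ham-GFP), was found on chromatin of whole embryos aged 0 to 24 hours, by immunoprecipitation with an antibody against GFP and sequencing (ChIP-seq). The description in the labels names the anti-GFP antibody, whereas the antibody field names ham. There were 2 biological replicates of this single group, with no other genotype, treatment or stage, so no condition was compared. In whole embryos of mixed ages, binding in few cells and weak binding in many cells cannot be told apart.

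GATA factors are zinc finger proteins that bind DNA words built around GATA. In the fly embryo srp (serpent) is known for blood cells, fat body and endoderm, GATAe for the midgut, pnr (pannier) for the dorsal ectoderm and the heart, and grn (grain) for the posterior spiracles and some neurons. The product of ush (u-shaped) is the Friend-of-GATA protein of the fly, which binds Pnr and Srp and alters what they do. The product of fkh (fork head) is the FoxA factor of the fly, known for the gut ends and the salivary gland. Ham (hamlet) is a PRDM family protein, related to mammalian Evi1, known for choosing fates in sensory organ lineages.

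Thresholded Ham peaks stood at fkh, at GATAe and inside ush, and none was nearest to srp, pnr, grn or GATAd. That is 3 of 7 genes in the pooled list, where 8.34% of all protein-coding genes had a peak. The peak at fkh was just upstream of its start site, the peak at GATAe lay between srp and GATAe, and the 3 rows at ush were all in introns. The replicates differed at these genes. Replicate 2 had a thresholded peak at fkh, GATAe and ush (3 of 7, with 6.37% of all genes). Its ush peak was at another place than the pooled ush rows, none of which it passed. Replicate 1 had a thresholded peak at 0 of 7 (2.82% of all genes). The shorter list that the submitters called conservative also held peaks at 0 of 7 (4.56% of all genes).

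The sequence around the summit of each of the 5 pooled peaks, 50 bp on either side, is shown because these are the places where thresholded Ham signal met these genes. All are from the plus strand of dm6 (RefSeq Release 6), 5′ to 3′, in lower case. Capitals mark words found on either strand. The GATA words searched were TGATAA and AGATAA as well as TGATAG and AGATAG with a last base G. The forkhead words searched were TGTTTAC and TATTTAC as well as TGTTTGC and TATTTGC with a G before the last base.
fkh, chr3R:28585450-28585550: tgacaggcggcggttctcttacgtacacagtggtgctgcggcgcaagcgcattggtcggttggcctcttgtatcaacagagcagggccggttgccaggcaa
GATAe, chr3R:16005337-16005437: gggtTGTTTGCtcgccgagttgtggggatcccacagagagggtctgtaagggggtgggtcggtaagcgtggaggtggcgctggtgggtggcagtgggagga
ush, chr2L:505378-505478: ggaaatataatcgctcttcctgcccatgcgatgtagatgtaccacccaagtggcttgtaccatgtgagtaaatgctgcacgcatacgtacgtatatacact
ush, chr2L:516177-516277: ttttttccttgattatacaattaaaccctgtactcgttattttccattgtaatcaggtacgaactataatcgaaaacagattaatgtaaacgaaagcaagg
ush, chr2L:516384-516484: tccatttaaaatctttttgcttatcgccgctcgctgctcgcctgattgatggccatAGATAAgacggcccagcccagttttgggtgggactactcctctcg
A GATA word stood in 1 of the 5 windows, 6 bp from the summit of the last ush row. A forkhead word stood in 1 of the 5, at GATAe, starting 46 bp from the pooled summit and 1 bp from the summit that replicate 2 gave for the same peak. Neither kind of word was in the fkh window or in the other ush windows.

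Among all 1421 pooled thresholded windows on the main chromosome arms, 19.4% held a GATA word and 12.2% a forkhead word. Among all 147354 candidate windows there the shares were 12.9% and 9.09%. Of the 253 candidate windows of the GATA genes, ush and fkh, 50 (19.8%) held a GATA word and 17 (6.72%) a forkhead word. The longer words of mammalian Evi1, GACAAGATA for its first set of fingers and GAAGATGAG for its second, were in 0 of the 253. Over all candidate windows their shares were 0.0299% and 0.105%, which is too rare for a count of 0 in 253 to be read as a difference. The GATAe and fkh windows were low in A and T, at 35.6% and 39.6%, and the ush windows held 54.5%, 69.3% and 48.5%, beside 61.6% over all thresholded windows. A match describes letters only, and the windows of 1 gene share their locus.

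The fkh peak was the tallest of the 5 rows. It lay at chr3R:28585332-28585667, in intergenic sequence within the promoter, with its summit 236 bp upstream of the fkh start site (FBgn0000659, chr3R:28580976-28585264, minus strand). Its signal value, which is the authors' own peak height, was 104.0 in the pooled list, 16.8 in replicate 1 and 91.62 in replicate 2. The score, a deposited number that rises with reproducibility up to 1000, was 1000 in the pooled list, 1000 in replicate 2 and 44 in replicate 1. Every list has its own scores, also that of a single replicate. A score of 1000 in 1 list, the pooled one included, therefore does not show that the 2 biological replicates agreed. Every thresholded peak of any list scored at least 830. Replicate 2 passed this peak, while replicate 1 had only a region of low score there. Of all replicate 1 regions, 16.3% were at least as tall as that region. A replicate 1 score under 100 was common, found at 32.2% of the pooled thresholded peaks with a height in both replicates. The height in replicate 2 was 5.45 times that in replicate 1, a ratio reached by 3.52% of the 1250 pooled peaks that had a height in both, whose median ratio was 2.19 (interquartile range 1.65 to 2.93). In the conservative list the same region had a score of 430, an irreproducible discovery rate (IDR, the authors' measure of how poorly a region repeats, where lower is better) of 0.0917.

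At fkh the other 50 of its 51 pooled candidate regions stayed far below the peak.
The next tallest, at chr3R:28578028-28578363, had a height of 51.4 and a score of 354. Of the 51 regions 35 were intergenic, 10 were in noncoding exons, and 6 were in coding or untranslated exons of fkh or a neighbour. In replicate 1 the region of highest score at fkh was elsewhere, in a coding exon of fkh, with a score of 320.

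GATAe had a single thresholded peak, upstream of the gene. It lay at chr3R:16005219-16005554, 3718 bp upstream of the nearest GATAe start site (FBgn0038391, chr3R:16009105-16019133, plus strand), in an exon of the long noncoding RNA gene lncRNA:CR42839. Its height was 93.07 in the pooled list, 22.23 in replicate 1 and 65.79 in replicate 2. Its scores were 1000, 52 and 973. The ratio of heights was 2.96, reached by 23.8% of the 1250 peaks. In the conservative list the score was 722 (IDR 0.0182), below the minimum of 830. The gene given to this peak depends on the rule: with start sites of every gene type allowed, it went to a transposon copy, and it was neither inside a protein-coding gene nor within 1 kb of one. Its summit, at chr3R:16005387, was nearer to the 3′ end of srp, at chr3R:16004085, than to the GATAe start site.
The region of next highest score at GATAe was at its own internal promoter, 393 bp upstream of a start site, at chr3R:16011713-16012048, with a score of 576 and a height of 47.5. In replicate 2 the region there had a score of 700.

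srp, GATAe and pnr stand side by side on chromosome arm 3R, all on the plus strand, over 55.7 kb (chr3R:15986152-16041796). Within that stretch 64 pooled candidate regions were listed, 1 of them thresholded, and 2 scored over 500. The GATAe peak had no thresholded neighbour in the stretch in any of the pooled, conservative and replicate lists. The genes next to the stretch also had none: Hel89B, a helicase gene, had 13 candidate regions with heights up to 52.0, and Jhbp4, named for juvenile hormone binding, had 8 with heights up to 37.3.

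**Figure D1:**
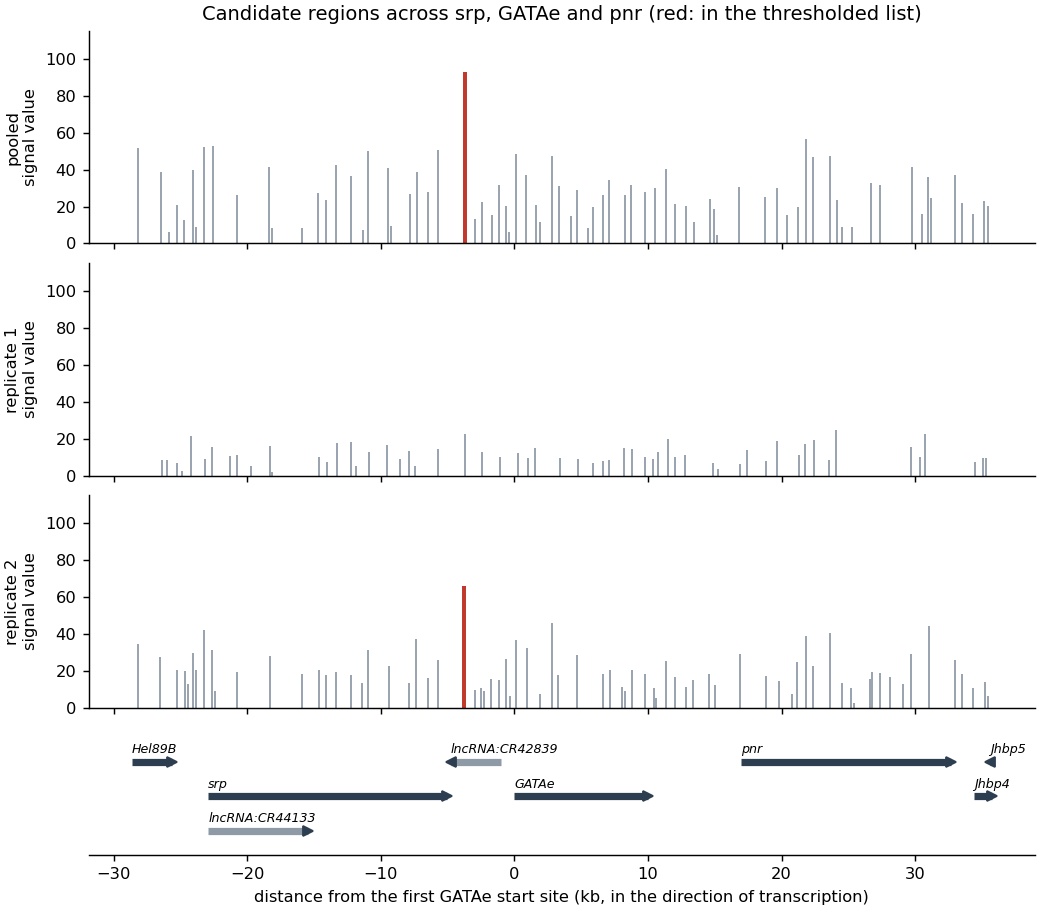
Signal value (authors' units) of every candidate region across srp, GATAe and pnr in the pooled list and in each replicate, against distance in kb from the first GATAe start site. Red lines are thresholded regions. Bars with arrowheads show protein-coding genes (dark bars) and noncoding RNA genes (grey bars), and other gene types are not drawn. A single region, 3718 bp upstream of GATAe, was thresholded in the pooled list (93.07) and in replicate 2 (65.79), and none was in replicate 1.

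srp (FBgn0003507, chr3R:15986152-16004085, plus strand) had 24 pooled candidate regions and 0 thresholded peaks. The region of highest score, 510, lay 295 bp upstream of its first start site, at chr3R:15985689-15986024, with a height of 52.2. Replicate 2 gave a score of 513 and a height of 42.2 there. The region of greatest height was just inside the gene, at 52.7 with a score of 447. Thus the srp promoter held candidate signal that did not reach the score minimum in any list. Of all protein-coding genes, 20.8% had a pooled region scoring at least as high as the best one of srp.

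pnr (FBgn0003117, chr3R:16026079-16041796, plus strand) had 22 pooled candidate regions and 0 thresholded peaks. Its best score was 426, in an intron, 1848 bp upstream of an internal start site, at chr3R:16032570-16032905, with a height of 47.5. Replicate 2 scored 532 there. Its greatest height was 56.8, at chr3R:16030755-16031090, in an intron 3663 bp upstream of the same start site. In replicate 1 the best region of pnr scored 211. Of all protein-coding genes, 27.4% had a best pooled score at least as high as that of pnr.

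grn (FBgn0001138, chr3R:8147368-8181444, minus strand) lies apart from the cluster on the same arm. It had 60 pooled candidate regions, 41 of them in introns, and 0 thresholded peaks. Its best score, 460, belonged to a very low region in an intron, 510 bp inside the gene, with a height of 5.80. The tallest region of grn, 49.4, had a score of 394. The high score and the great height were thus on different regions of grn. A best pooled score of at least 460 was held by 24.4% of all protein-coding genes.

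The windows at the best regions of srp, pnr and grn are shown because these GATA genes had no thresholded peak. Marks, strand and build are the same as for the peaks.
srp, chr3R:15985807-15985907: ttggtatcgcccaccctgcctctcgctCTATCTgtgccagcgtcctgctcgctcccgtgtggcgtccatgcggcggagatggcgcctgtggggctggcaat
pnr, chr3R:16032688-16032788: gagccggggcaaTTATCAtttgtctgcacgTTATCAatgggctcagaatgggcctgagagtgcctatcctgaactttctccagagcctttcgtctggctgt
grn, chr3R:8180884-8180984: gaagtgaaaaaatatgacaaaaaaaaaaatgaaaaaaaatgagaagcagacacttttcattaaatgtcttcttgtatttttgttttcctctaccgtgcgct
The pnr window held TGATAA 2 times, read on the minus strand. The srp window held AGATAG once, also on the minus strand. The grn window held no GATA word within 50 bp of the summit, and all 4 GATA words within 100 bp.

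GATAd (FBgn0032223, chr2L:10333734-10339185, plus strand), the least described of the GATA genes, had no candidate region at all in the pooled list, the conservative list or replicate 1. In the pooled list the nearest regions on either side were 18768 bp apart, and 393 of 147347 such gaps (0.267%) were at least as long, the median gap being 629 bp. In replicate 1 the gap was 43535 bp, reached by 67 of 99721 gaps (0.0672%). Replicate 2 differed: it listed 4 regions nearest to GATAd, with heights from 8.38 to 25.7 and scores from 27 to 87. The pooled list thus had no region where replicate 2 alone had 4 low ones. Of all protein-coding genes, 9.84% had no pooled candidate region.

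ush had the most rows, 3 pooled thresholded peaks, all in introns of its long transcription unit (FBgn0003963, chr2L:476220-540560, plus strand). The tallest, at chr2L:505260-505595, was 14593 bp downstream of a start site. Its height was 86.04 in the pooled list, 22.76 in replicate 1 and 57.26 in replicate 2, with scores of 910, 203 and 727. No replicate passed it on its own, and replicate 2 came nearer to the minimum of 830. The gene given to the ush rows depends on the rule: with gene 5′ ends only this row went to cbt and the others to lwr, and within 5 kb of a start site all 3 went to no gene. With start sites of any gene type this row went to lncRNA:CR46259, and the others stayed with ush.
The other rows overlap each other by 129 bp and count as 1 locus, chr2L:516059-516601, about 7 kb upstream of an internal start site. The row at chr2L:516059-516394 had a height of 68.60 in the pooled list, 16.69 in replicate 1 and 45.19 in replicate 2, with scores of 887, 17 and 487. The row at chr2L:516266-516601 had a height of 13.4 and a score of 888. This row was thresholded although 72.5% of all pooled candidate regions were at least as tall, and no region of either replicate held its summit. The 5 rows of these genes were therefore 4 loci.
In the conservative list the first ush region had a score of 727 (IDR 0.0177) and the second a score of 403 (IDR 0.107).

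Replicate 2 thresholded another place in ush that the pooled list did not. It lay at chr2L:490118-490417, in an untranslated exon of ush, 567 bp upstream of an internal start site, with a height of 50.99 and a score of 851. In the pooled list the region there had a height of 53.86 and a score of 687, and in replicate 1 a height of 10.33 and a score of 8. Among all regions of the GATA genes, ush and fkh, the pooled scores just inside the thresholded list were 887 and 888, and those just outside were 690 and 687, both at ush.

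**Figure D2:**
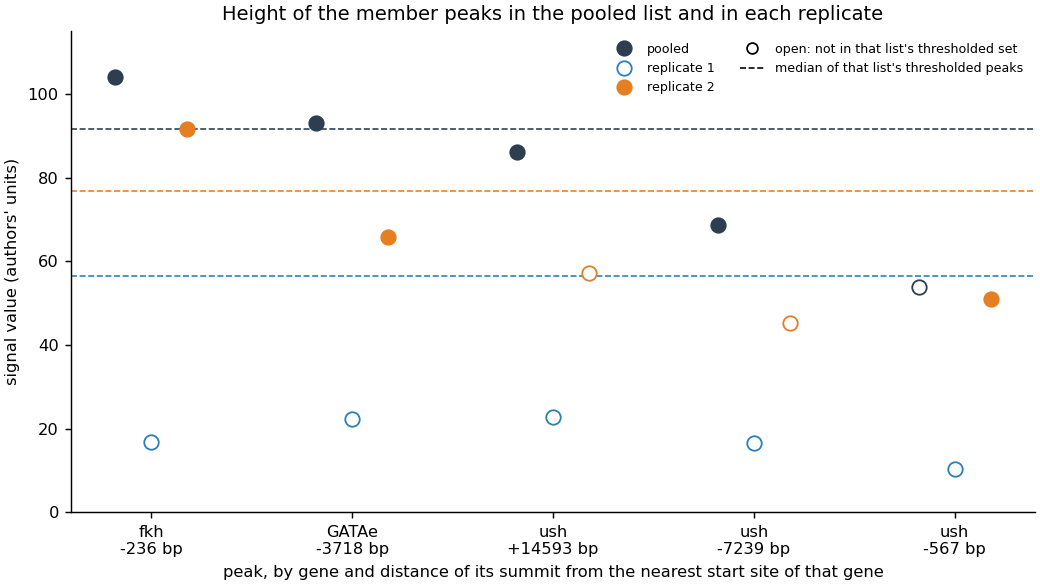
Signal value (authors' units) of the peaks at fkh, GATAe and ush in the pooled list and in each replicate. Filled points are thresholded in that list, open points are not, and dashed lines are the median height of all thresholded peaks of that list. Every replicate 1 point is open and lies between 10.33 and 22.76; the fkh point of replicate 2, at 91.62, is the only replicate point above its line. The overlapping ush row without replicate values is left out.

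The tallest candidate regions inside ush were not counted for ush and were in no thresholded list. They lie in an intron near the 5′ end of ush, upstream of cbt (cabut, FBgn0043364), a zinc finger gene on the minus strand nested there, and the nearest start site is that of cbt. The tallest, at chr2L:480957-481229, had a height of 838.1 in the pooled list, 286.6 in replicate 1 and 561.5 in replicate 2. It had rank 5 by height in the pooled list, in the conservative list and in each replicate, and a score of 1000 in all 4. Beside it, the region at chr2L:479934-480269 had heights of 195.6, 73.1 and 117.4, also with a score of 1000 in all 4 lists. The third, at chr2L:481787-482122, had heights of 119.7, 26.14 and 89.67, with scores of 1000 in the pooled list, 877 in the conservative list, 19 in replicate 1 and 1000 in replicate 2. All 3 were taller in the pooled list than the thresholded ush peaks, and both replicates scored 1000 at the first and the second of them.
In the whole pooled list 169 regions scored at least 830 and were not thresholded. Those 169 included 3 inside ush and 0 inside the other 6 genes. Per the deposited file descriptions, an additional input of unstated nature went into thresholding, and its part in leaving these regions out was not tested. Whether the regions belong to ush or cbt also rests on the nearest start site alone. The window of the tallest is shown because it outranks every counted peak of ush; it held no GATA or forkhead word.
ush intron, nearest to cbt, chr2L:481043-481143: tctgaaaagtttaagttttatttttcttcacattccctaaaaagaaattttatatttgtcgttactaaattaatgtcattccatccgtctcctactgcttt

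**Figure D3:**
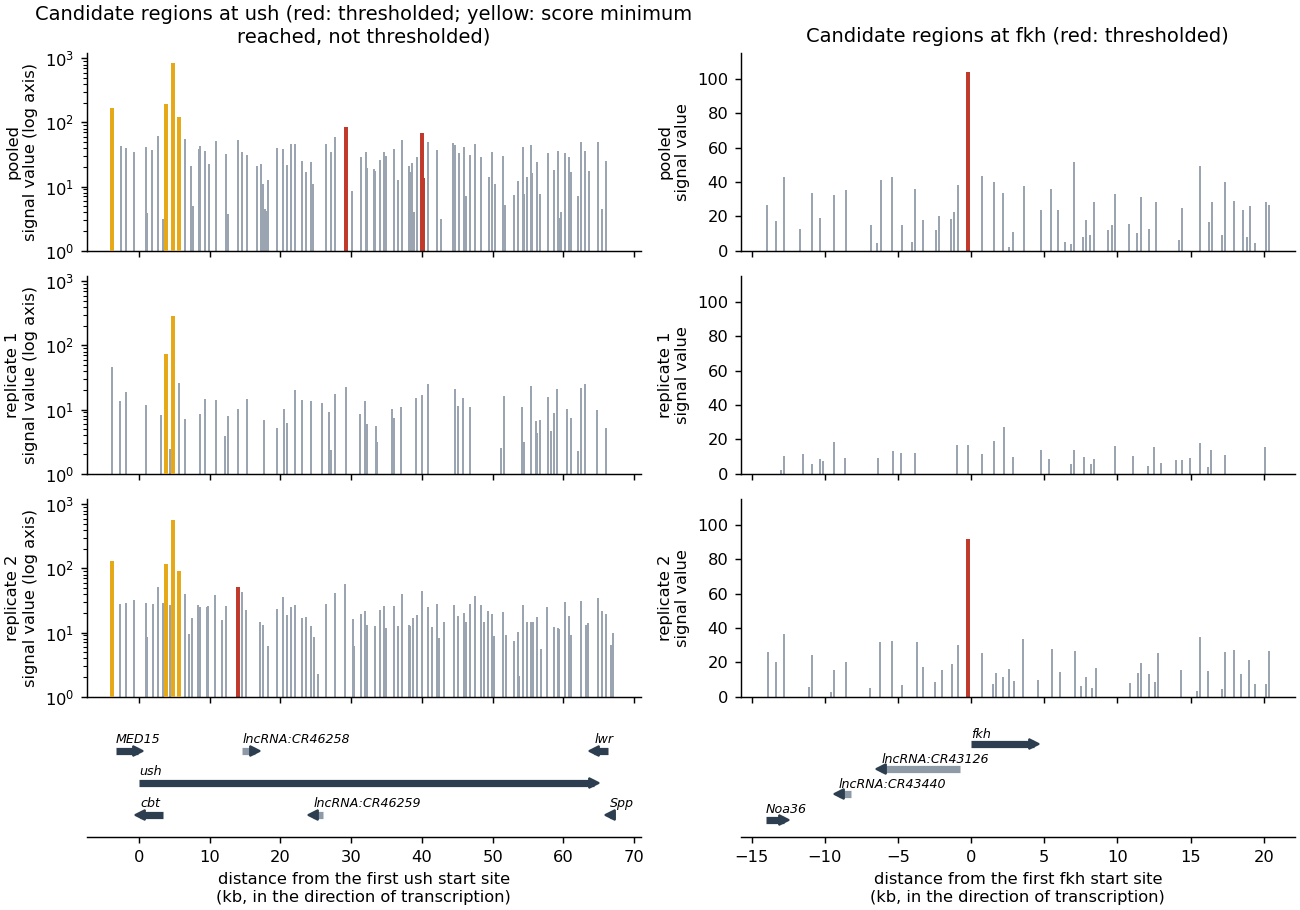
Signal value (authors' units) of every candidate region at ush (left, log axis) and fkh (right, linear axis from 0) in the pooled list and in each replicate, against distance in kb from the first start site of the gene. Red lines are thresholded regions and yellow lines are regions that scored at least 830 without being thresholded. Bars with arrowheads show protein-coding and noncoding RNA genes. At ush the yellow lines reach 838.1 in the pooled list, above all the red ones, and at fkh the peak reaches 104.0 in the pooled list and 91.62 in replicate 2, and 16.8 in replicate 1.

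Over the 253 candidate regions of the GATA genes, ush and fkh, 5 passed (1.98%, 95% Wilson interval 0.847 to 4.54%, counting error only), beside 0.993% of all pooled candidate regions. In the conservative list 0 of 243 passed, beside 0.541% of all. In replicate 1 the count was 0 of 172 (0.506% of all), and in replicate 2 it was 3 of 240 (0.767% of all). Regions of 1 gene share their locus and are not replicates. The genes had many regions to begin with: 22 at GATAe, 24 at srp, 22 at pnr, 60 at grn, 74 at ush and 51 at fkh, beside a median of 5 per gene. Of the 1771 protein-coding genes with at least 22 candidate regions, 343 (19.4%) had a pooled thresholded peak, and of the genes described here 6 were in that class, GATAd being outside it, with a peak at 3 of the 6. Per 10 kb of the stretch nearest to the gene, fkh had 18.7 regions, grn 15.3, GATAe 14.6, ush 14.4, pnr 11.1, srp 10.6 and GATAd 0.0, beside a mean of 10.7 over genes.

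The candidate regions of these genes sat mostly away from start sites. Their median distance was 4946 bp, beside 3638 bp over all main-arm candidate regions, and 13 of the 253 (5.14%) lay within 500 bp of a start site of their gene, beside 12.3% of all regions within 500 bp of a start site of theirs. By annotation 139 were in introns, 66 intergenic, 22 in coding exons, 15 in noncoding exons and 11 in untranslated exons. At ush 67 of 74 were intronic, and at fkh 35 of 51 were intergenic. The median height was 24.97, beside 21.6 over all.
Replicate 1 had a region at the summit of 143 of the 253 (56.5%) and replicate 2 at 204 (80.6%). Both replicates had a region at 118, and replicate 2 was the higher of the replicates at 93 of these. Over the 118, the Spearman rank correlation of the replicate heights was low, at 0.189. By gene it ran from -0.275 at srp to 0.325 at ush. Nothing in the sources says that the heights of the replicates share a scale.

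**Figure D4:**
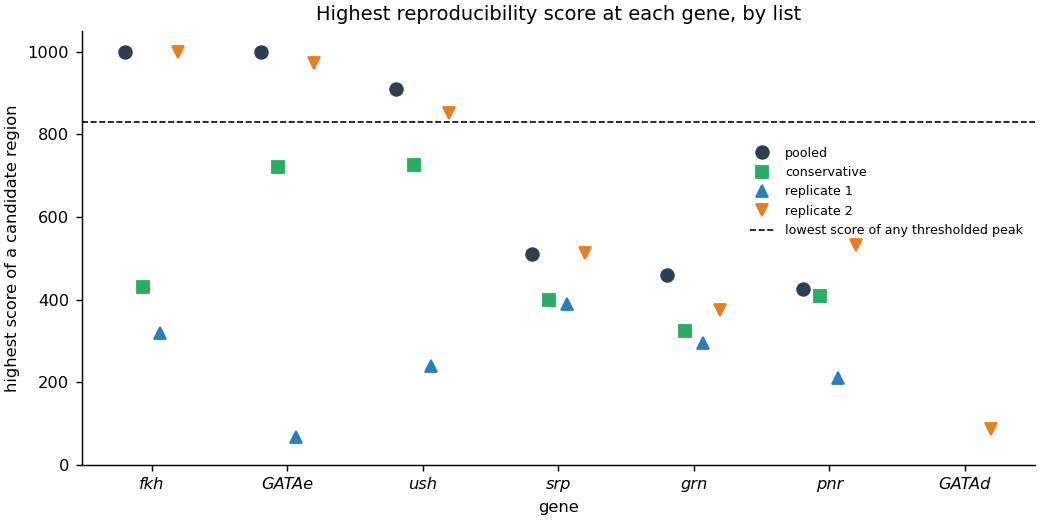
Highest score of any candidate region at each of the 7 genes in the pooled list, the conservative list and each replicate; the dashed line is the lowest score of any thresholded peak, 830. fkh, GATAe and ush are above the line in the pooled list and in replicate 2, no gene is above it in the conservative list or replicate 1, and GATAd has a point for replicate 2 alone.

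By best pooled score the order was fkh and GATAe at 1000, ush at 910, srp at 510, grn at 460, pnr at 426, and GATAd without a region. By greatest height it was fkh at 104.0, GATAe at 93.07, ush at 86.04, pnr at 56.8, srp at 52.7 and grn at 49.4. The order of srp, grn and pnr thus changed with the measure, and with 1 value per replicate no neighbours in these orders can be said to differ beyond their spread. A best score of 1000 was held by 5.86% of all protein-coding genes, and one of at least 910 by 7.22%.

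Genes with peaks most like these were sought among 1080 genes with a height in the pooled list and in both replicates, by Euclidean distance of the 3 log2 heights of the highest peak. Nearest to GATAe were Ldh, for lactate dehydrogenase, at a distance of 0.07, and the chaperone gene Hsc70-4 at 0.11. Nearest to ush were Gorab at 0.10 and Mrp5 at 0.11. Nearest to fkh were Lamtor5 at 0.11 and Nacalpha, of the nascent polypeptide-associated complex, at 0.13. The Nacalpha peak had heights of 108.6 in the pooled list, 17.75 in replicate 1 and 96.52 in replicate 2, beside 104.0, 16.8 and 91.62 at fkh. These genes were chosen by the same heights, so their likeness follows from the choice.

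Genes with known roles beside the GATA factors, ush and fkh were counted in the same way against the 8.34% of all genes. Of 14 endoderm and midgut genes 1 had a pooled peak, bowl, an odd-skipped family gene, with a height of 154.5. Of 19 hemocyte and hematopoiesis genes 1 had a pooled peak, zfh1, at 146.0. These are the tissues of srp, GATAe and ush, and their counts lie near the background share.
Of 19 heart and dorsal ectoderm genes, the tissues of pnr, 4 had a pooled peak, with the T-box gene mid at 109.7 and the NK homeobox gene tin at 101.9, then Doc2 and H15. Of 14 salivary gland and posterior spiracle genes, the tissues of fkh and grn, 4 had one, with the homeobox genes hth at 99.96 and ems at 83.47, then ct and trh. None of these 8 genes had a peak passed by replicate 1.
Of 16 other forkhead genes 3 had a pooled peak: foxo at 258.4, CHES-1-like at 218.3 and slp2 at 74.39. The foxo and CHES-1-like peaks were thresholded in both replicates, which no peak of fkh, GATAe or ush was. Of 11 genes for cofactors of GATA and Friend-of-GATA proteins 2 had one, simj, for a p66 subunit of the NuRD complex, at 82.16, and Bx, for a LIM-only protein, at 65.64. The shares were 7.14% for the endoderm list, 5.26% for the hemocyte list, 21.05% for the heart list and 28.57% for the salivary gland list. They were 18.75% for the other forkhead genes and 18.18% for the cofactors. No list was matched for number of candidate regions. Of the genes with at least 22 such regions, 19.4% had a pooled peak. The lists were short and chosen by role, so these counts describe the lists only.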

How the data were processed

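Peak lists of 2 biological replicates, of both pooled, and of a conservative set were used, on dm6 per the labels. Peaks were ranked and thresholded by irreproducible discovery rate (IDR), per the deposited file descriptions. Which aligner and caller were run, and against which control, is not given in the sources used here. Signal values are the authors' heights as deposited. The score is the authors' deposited value, which followed the −log10 IDR of the deposited ranked lists in 99.99% of pooled rows, so that 830 stands for an IDR of 0.0100. Chromatin was sheared to 200 to 800 bp, per the labels. Read totals were not used, and depth is therefore unknown.

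The rest was computed here with Python 3.11.15, pandas 2.3.3 and numpy 2.4.6. Start sites of all transcripts of protein-coding genes came from Ensembl release 115 (BDGP6.54), and sequences from RefSeq Release 6; no peak ended beyond its chromosome arm. A summit went to the gene with the nearest start site, a promoter summit lay within 500 bp of one, and a distance is negative or upstream in the direction of transcription. A pooled peak took the height of the replicate's ranked region that held its summit, and peaks were found again by an overlap of at least 1 bp. Of the list symbols 5 were older ones and were replaced, and 2 were not matched. Intervals on shares are 95% Wilson intervals. Steps were tested on simulated regions. With 1 group and 2 replicates no test between conditions was possible and none was made.

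The members and lists were chosen with earlier results of these data known. Named are the 7 genes, each of their thresholded peaks, their best region outside the thresholded list, the 2 genes of each list with the highest peak (the others with a peak were added after their values were seen), genes next to srp, GATAe and pnr, and the 2 genes with the most similar heights. The regions near cbt, the greatest heights outside the thresholded list and the windows without a peak were added after the data were seen. Alternatives were the conservative list, each replicate alone, 4 other gene assignments, a score of at least 900, other overlaps and windows of 25 and 100 bp.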

Additional observations from a re-analysis of the deposited data

How the results depend on the processing

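In all, 67 alternative values were computed for 19 results, of which 39 stayed as reported by the rule used (for a count, within 1.5 times) and 28 moved. The count of 3 of 7 genes with a peak fell to 0 in the conservative list and ran from 0 to 3 with a replicate left out, 0 being replicate 1 alone. The 5 pooled peaks became 0 in the conservative list, 2 with gene 5′ ends only (the ush rows going to cbt and lwr), 2 within 5 kb of a start site, 3 with start sites of any gene type and 3 at a score of at least 900, and ran from 0 to 3 with a replicate left out. The share of candidate regions that passed became 0.0% in the conservative list, 1.105% with gene 5′ ends only and 1.19% at a score of at least 900, and ran from 0.0 to 1.25% with a replicate left out. Of the 5 peaks 2, at fkh and GATAe, were found again in a replicate's own list. This became 1 by gene body within 1 kb and 1 with any gene type, and ran from 0 to 2 with a replicate left out; the conservative list gave no value, having no peak there. With a replicate left out, the endoderm count ran from 0 to 2, the heart count from 0 to 2, the salivary gland count from 0 to 3 and the cofactor count from 0 to 2. The conservative list gave 2 for the heart list and 1 for the cofactors, and the 5 kb limit gave 1 for the heart, salivary gland and cofactor lists. The causes were not tested. No paired analysis was possible because the replicate numbers name the 2 replicates of a single group. Depth is unknown, so low heights in replicate 1 say nothing on absence of binding.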
